A study of Mus musculus with 8 samples.

Results

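The testis-specific serine kinases (TSSK) are a small family of protein kinases made almost only in the testis, and 6 mouse members, Tssk1 to Tssk6, were taken by symbol from a deposited table of 57690 rows. Each symbol had 1 row. The table covers bulk testis RNA of C57BL/6 mice, 8 weeks old, with tissue collected 7 days after treatment. Mice had received 2 intraperitoneal injections of 200 µg of an antibody against PD-L1, which binds the checkpoint receptor PD-1 on T cells, or 2 injections of 200 µg of an IgG2b isotype control, and each group held 4 libraries. The labels name no individual mice. Whether each library is a different mouse is therefore not known here, and the p-values rest on a spread that may be technical. Anti-PD-L1 replicate 1 and IgG replicate 4 stood apart, with a mean Pearson r to the other libraries of 0.958 and 0.963, against 0.969 to 0.972 for the other 6, and with 31322 and 31572 genes above 0 TPM against 29064 to 29904.

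Spermatids, the haploid germ cells that reshape into sperm after meiosis, are the cells in which the TSSK genes are mainly transcribed. The kinases act while the nucleus condenses and the flagellum is built. TSSK1 and TSSK2 bind and phosphorylate TSKS, and mice lacking both kinases are sterile. TSSK3 is needed for male fertility in mice. TSSK4 acts on the outer dense fibre protein ODF2 in the sperm tail. TSSK6 is activated by HSP90 with the co-chaperone encoded by Tsacc, and in mice it is needed for phosphorylation of the histone H2AX during chromatin condensation.

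After anti-PD-L1 none of the 6 members passed the test over all genes. Their mean levels in TPM (a unit that divides by gene length and gives each library the same total) lay between 7.82% lower and 13.7% higher than in IgG libraries. Tssk1, Tssk2 and Tssk3 were on the lower side and Tssk4, Tssk5 and Tssk6 on the higher side. The summed level of the family was 1390 ± 113 TPM in anti-PD-L1 libraries and 1392 ± 64.4 TPM in IgG libraries (SD, n = 4 each). Within the family the share of Tssk3 was lower in all 4 anti-PD-L1 libraries than in any IgG library, a pattern chosen after the levels had been seen. The shares of the other members overlapped between the groups. Of all tested genes, 1.91% had a ratio to the summed level of the family whose groups did not overlap. Bulk RNA cannot tell fewer spermatids from less transcript per spermatid.

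The genes lie at 5 places in GRCm38, the assembly also called mm10. Tssk1 (ENSMUSG00000041566) and Tssk2 (ENSMUSG00000045521) are neighbours on the plus strand of chromosome 16, at 17894223 to 17897922 and at 17898637 to 17900024, with 714 bases between them, and each has 1 exon. Tssk3 (ENSMUSG00000000411) lies on the minus strand of chromosome 4 at 129489014 to 129491022 and has 2 exons. Tssk4 (ENSMUSG00000007591) lies on the plus strand of chromosome 14 at 55650184 to 55652539, with 7 annotated transcripts. Tssk5 (ENSMUSG00000060794) lies on the minus strand of chromosome 15 at 76371952 to 76374938, with 3. Tssk6 (ENSMUSG00000047654) is a single exon on the plus strand of chromosome 8 at 69902184 to 69903518. All 6 are annotated as protein coding.

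Tssk1 and Tssk2 are the closest relatives. Their coding sequences, of 1095 and 1074 bases, were identical at 81.9% of 1045 aligned bases, whereas the other 14 pairs were identical at 61.4% to 67.0%. The longest stretch they share is shown because reads lying wholly within it match both genes. It spans bases 371 to 483 of both coding sequences, within the kinase domain, and is printed in capitals with 30 bases on each side in lower case. It lies in chr16:17894693-17894865 for Tssk1 and in chr16:17899075-17899247 for Tssk2, both on the plus strand of GRCm38.
Tssk1 coding stretch: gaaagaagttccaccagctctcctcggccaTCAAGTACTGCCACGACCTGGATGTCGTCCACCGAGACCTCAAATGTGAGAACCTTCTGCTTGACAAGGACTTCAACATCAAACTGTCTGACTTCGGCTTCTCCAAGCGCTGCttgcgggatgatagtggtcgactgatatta
Tssk2 coding stretch: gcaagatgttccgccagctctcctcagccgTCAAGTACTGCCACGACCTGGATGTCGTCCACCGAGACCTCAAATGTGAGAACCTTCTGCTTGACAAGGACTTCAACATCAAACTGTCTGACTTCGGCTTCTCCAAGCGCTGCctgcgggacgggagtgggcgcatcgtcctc
The flanks differed at 17 positions. All 50-base windows in transcripts of the members were compared with both strands of transcripts of other genes. Tssk1 shared 3.83% of its windows (with Tssk2 and Dgcr2) and Tssk2 shared 9.34%, all with Tssk1. Tssk6 shared 25.3% (326 of 1286 windows), all with Ndufa13, and Tssk3, Tssk4 and Tssk5 shared none. Dgcr2 and Ndufa13 overlap Tssk1 and Tssk6 on the opposite strand.

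Upstream sequence is shown for Tssk1 and Tssk2, the pair whose promoter windows aligned best. RefSeq promoter windows (GRCm38.p6, 250 bases before to 50 after the start site) were found for 5 of the 6 members, all but Tssk5. The best local alignment among the 10 pairs of windows was that of Tssk1 with Tssk2, 41 identical bases in 52 columns, against 9 to 17 identical bases in the other pairs. Bases -74 to -1 of both genes follow, from chr16:17894129-17894202 and chr16:17898563-17898636 on the plus strand, with the identical bases in capitals. Dgcr2 spans 17839482 to 17898562 on the minus strand, so the Tssk1 stretch lies within it. The Tssk2 stretch lies directly upstream of Dgcr2 as well.
Tssk1 upstream: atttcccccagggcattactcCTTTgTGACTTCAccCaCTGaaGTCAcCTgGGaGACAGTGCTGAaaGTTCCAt
Tssk2 upstream: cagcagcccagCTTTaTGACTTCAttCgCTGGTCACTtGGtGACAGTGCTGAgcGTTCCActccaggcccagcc
Motifs were looked for on both strands of the 300-base windows, and the letters were chosen after these sequences had been read. TGACTTCA, which is in both printed stretches, was in 1.52% of 32817 promoter windows. The cyclic AMP response element TGACGTCA, the site of the spermatid activator CREM, was in 1.79% of windows and in none of the 5 members' windows, and TATAAA was in 13.6% of windows and in none of these 5. The X-box, the inverted repeat bound by RFX factors, was in 0.78% of windows and among the members only in that of Tssk6. These matches describe the letters and show no binding.

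The deposited levels put Tssk2 first and Tssk5 far behind. Over the 8 libraries Tssk2 ranged from 446 to 549 TPM, Tssk6 from 354 to 510, Tssk3 from 185 to 224, Tssk1 from 157 to 176, Tssk4 from 93.9 to 117 and Tssk5 from 6.99 to 10.1 TPM. Tssk2 and Tssk6 were the only neighbours in this order whose ranges overlapped. By mean level Tssk2 ranked 273rd and Tssk6 355th among the 57690 rows, while Tssk5 ranked 10585th. The level of Tssk1 rests on a deposited length of 3700 bases, where RefSeq gives the gene 1451 bases, and the effect of that on its TPM was not tested.

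**Figure D1:**
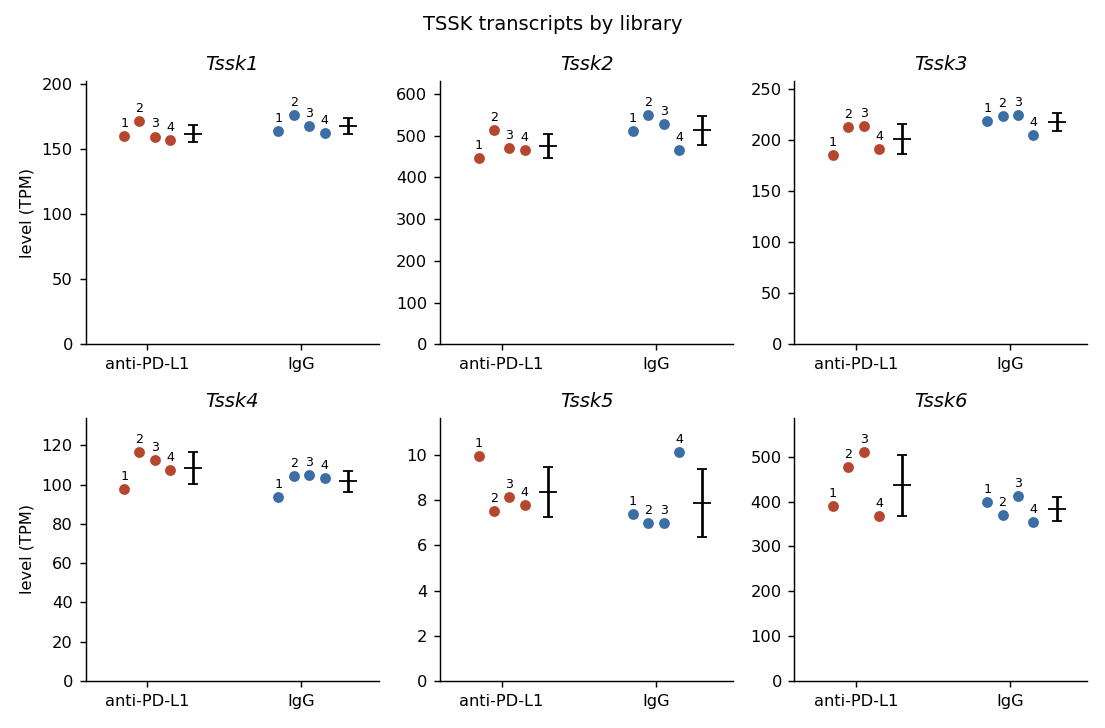
Level in TPM of each TSSK gene in every library, with points numbered by replicate and a bar for the mean ± SD of 4 libraries per group. The groups overlap for all 6 genes, and the 2 libraries high in Tssk5 are anti-PD-L1 replicate 1 and IgG replicate 4.

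Tssk1, one of the pair of chromatoid body and flagellar kinases that act on TSKS, was at 159, 171, 159 and 157 TPM in anti-PD-L1 replicates 1 to 4, against 163, 176, 167 and 162 TPM in IgG replicates 1 to 4. Replicate 2 was the highest of each group and the groups overlapped. Its difference, anti-PD-L1 minus IgG, was -0.05 in log2(TPM + 1) with a 95% confidence interval from -0.15 to 0.06. It was -0.024 when IgG replicate 2 was left out, -0.075 when anti-PD-L1 replicate 2 was, and -0.078 with TMM scaling (trimmed mean of M-values). Tssk2, its partner, was at 446, 514, 471 and 466 TPM in anti-PD-L1 libraries, against 511, 549, 528 and 466 TPM in IgG libraries. IgG replicates 1 and 4 lay within the anti-PD-L1 range and IgG replicates 2 and 3 above it. The difference of Tssk2 was -0.11 (SE 0.06, 95% interval from -0.26 to 0.03), or -0.07 after quantile normalization and -0.16 with IgG replicate 4 left out.

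Tssk3, needed for male fertility in mice, had the smallest unadjusted p of the family, 0.0787 by limma. It was at 185, 212, 213 and 191 TPM in anti-PD-L1 libraries, against 218, 223, 224 and 205 TPM in IgG libraries. Only IgG replicate 4 fell within the anti-PD-L1 range. The difference was -0.12 (SE 0.06, 95% interval from -0.25 to 0.02).

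Tssk4, the kinase of the tail protein ODF2, was at 97.6, 117, 113 and 108 TPM in anti-PD-L1 libraries, against 93.9, 104, 105 and 104 TPM in IgG libraries. The 3 highest libraries were anti-PD-L1, while anti-PD-L1 replicate 1 was below 3 of the 4 IgG libraries. The difference was 0.09 (SE 0.07, 95% interval from -0.06 to 0.24). It was 0.056 when IgG replicate 1 was left out, 0.058 when anti-PD-L1 replicate 2 was, 0.14 when anti-PD-L1 replicate 1 was, and 0.15 with both anti-PD-L1 replicate 1 and IgG replicate 4 left out. Tssk5, the member with the lowest level, was at 9.98, 7.54, 8.15 and 7.81 TPM in anti-PD-L1 libraries, against 7.39, 7.00, 6.99 and 10.1 TPM in IgG libraries. One library in each group stood above the rest, anti-PD-L1 replicate 1 and IgG replicate 4. The difference of Tssk5 was 0.08 (SE 0.14, 95% interval from -0.23 to 0.40), or 0.0062 with anti-PD-L1 replicate 1 left out, 0.20 with IgG replicate 4 left out and 0.12 with both left out.

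Tssk6, the kinase of chromatin condensation, had the widest difference of the family. It was at 391, 478, 510 and 368 TPM in anti-PD-L1 libraries, against 400, 370, 413 and 354 TPM in IgG libraries. Anti-PD-L1 replicates 2 and 3 were above all other libraries, and replicates 1 and 4 were within the IgG range. The difference was 0.17 (SE 0.11, 95% interval from -0.07 to 0.42), or 0.095 when anti-PD-L1 replicate 3 was left out and 0.25 when replicate 4 of that group was.

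By limma with Benjamini-Hochberg adjustment over 20343 tested genes, 0 of the 6 members passed an adjusted p of 0.05, with adjusted p from 0.983 to 0.999, and 0 of 6 had an unadjusted p under 0.05. Over all tested genes 0% passed and 5.23% had an unadjusted p under 0.05, of which 611 were higher and 452 lower. That split was 524 higher and 596 lower after quantile normalization and 481 higher and 530 lower with TMM scaling, while each member kept its sign under both. Leaving out IgG replicate 4 gave 1281 higher and 580 lower, leaving out anti-PD-L1 replicate 1 as well gave 1337 higher and 672 lower, and array quality weights gave 1371 higher and 784 lower. The groups overlapped for all 6 members, where 2.99% of tested genes had groups that did not overlap. The median difference of the 6 members was 0.02, beside 0.03 over all tested genes. All 6 passed the filter of a mean of 1 TPM. As folds of TPM + 1 the 95% intervals ran from 0.838 to 1.01 for Tssk3 and from 0.954 to 1.34 for Tssk6.

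**Figure D2:**
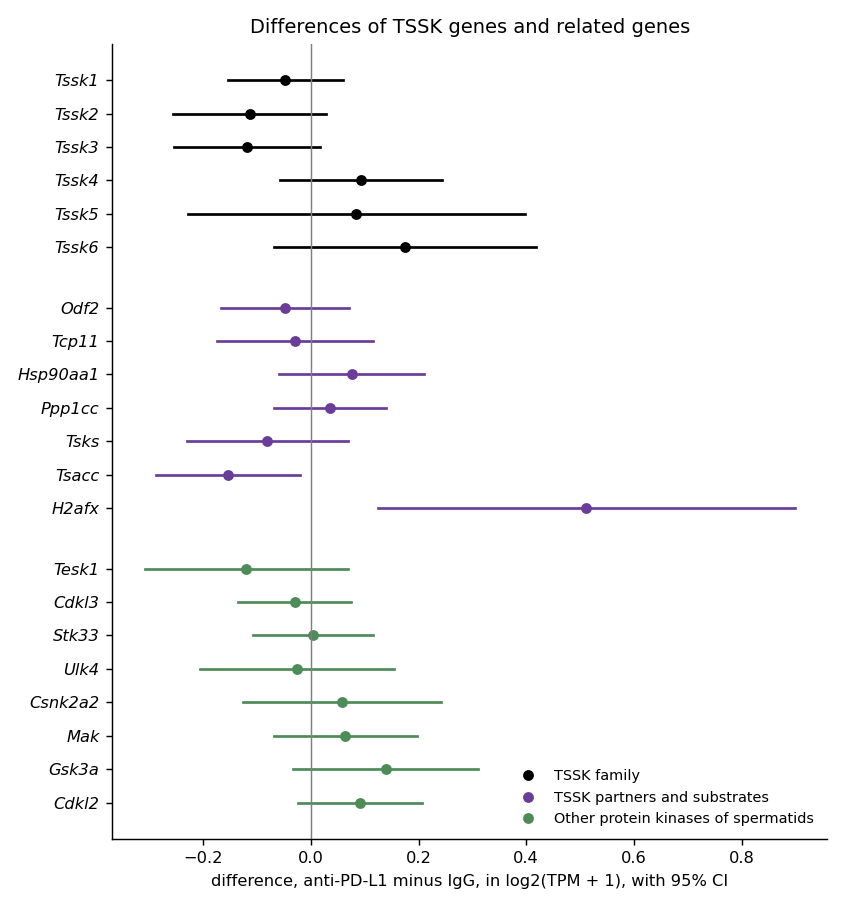
Difference between anti-PD-L1 and IgG libraries in log2(TPM + 1) with its 95% confidence interval from limma, for the 6 TSSK genes and named genes of both related lists (4 libraries per group). All 6 intervals of the family include 0, and the interval of H2afx lies farthest to the right.

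Tssk1 to Tssk4 varied less between libraries of a group than most tested genes, and Tssk5 and Tssk6 about as much as the median gene. The comparison took in all tested genes, from a mean of 1 TPM up, and was not matched for level. What part level has in these spreads was not tested. The standard deviation within groups was 0.05 for Tssk1 in log2(TPM + 1), and 2.01% of tested genes had a smaller one. It was 0.08 to 0.09 for Tssk2, Tssk3 and Tssk4, 0.18 for Tssk6 and 0.20 for Tssk5, and the median of all tested genes was 0.18.

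The make-up of the family within a library is free of the library total of the TPM scale, but still rests on the deposited gene lengths. It was examined after the levels had been seen, without a test. Tssk3 made up 14.4%, 14.2%, 14.5% and 14.7% of the summed TPM of the family in anti-PD-L1 libraries, against 15.7%, 15.6%, 15.5% and 15.7% in IgG libraries. These groups were apart, by more than the spread within either one. Of all tested genes, 1.91% had a ratio to the family's sum whose groups did not overlap. The shares of the other 5 members overlapped, with Tssk2 at 34.2% ± 1.66 in anti-PD-L1 and 36.9% ± 1.09 in IgG libraries and Tssk6 at 31.3% ± 2.64 in anti-PD-L1 and 27.6% ± 1.32 in IgG libraries (SD, n = 4 each).

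Ratios between members were also compared. Of 15 pairs, 3 had ratios that did not overlap between the groups. Tssk6 over Tssk3 was 2.11, 2.25, 2.39 and 1.92 in anti-PD-L1 libraries, against 1.83, 1.66, 1.84 and 1.73 in IgG libraries. Tssk6 over Tssk2 ranged from 0.790 to 1.08 in anti-PD-L1 libraries and from 0.674 to 0.783 in IgG libraries. Tssk3 over Tssk4 ranged from 1.77 to 1.90 in anti-PD-L1 libraries and from 1.98 to 2.33 in IgG libraries. These pairs share members and are not separate results. Of all tested genes, 2.65% had a ratio to Tssk6 and 5.06% a ratio to Tssk3 that did not overlap.

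**Figure D3:**
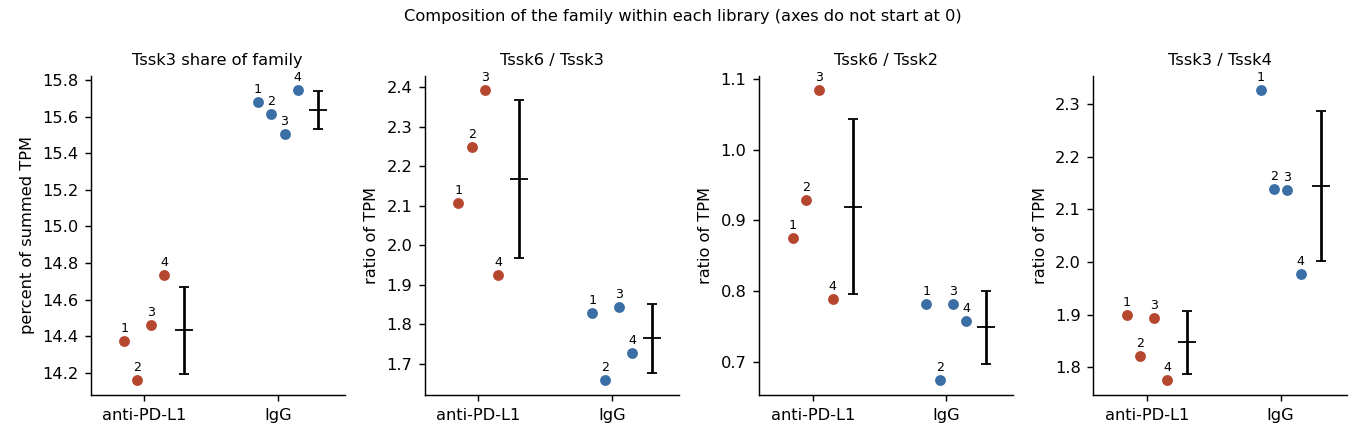
Share of Tssk3 in the summed TPM of the family, in percent, and ratios of TPM between members, in every library, with points numbered by replicate and bars for the mean ± SD of 4 libraries per group (axes do not start at 0). The groups are apart in each panel, narrowly for Tssk6 over Tssk2, where anti-PD-L1 replicate 4 is at 0.790 and the highest IgG library at 0.783.

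Tssk6 shares ground with a gene on the other strand. Of the bases of its exon, 28.1% (375 bases) are also exon of Ndufa13, which encodes a subunit of respiratory complex I and lies on the minus strand. Ndufa13 was at 98.9, 102, 91.9 and 107 TPM in anti-PD-L1 libraries, against 120, 119, 117 and 103 TPM in IgG libraries, a log2 difference of -0.20 (SE 0.07, adjusted p = 0.812 by limma with Benjamini-Hochberg adjustment). By group mean Ndufa13 was thus lower in anti-PD-L1 libraries and Tssk6 was higher. In IgG replicate 4 both genes were at the lowest level of that group. The strand setting of the counting is not given in the sources used here, so reads of the shared part may have been counted for either gene, and their part in the values of Tssk6 was not tested. Tssk1 lies opposite Dgcr2, with 1.70% of its exon bases shared. Dgcr2 was at 82.7 ± 5.09 TPM in anti-PD-L1 and 82.4 ± 11.4 TPM in IgG libraries (SD, n = 4 each).

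Across the 8 libraries Tssk2 varied with Tssk1 and with Tssk3 by Pearson r, while no Spearman rho of the 15 pairs passed after adjustment. Tssk1 and Tssk2 had a Pearson r of 0.88 (exact permutation p = 0.00342, 0.0228 after Benjamini-Hochberg adjustment over 15 pairs) and a Spearman rho of 0.86 (exact permutation p = 0.0107, adjusted 0.0577). Without the 2 libraries farthest from the median of Tssk1 r was 0.83, and it was 0.87 within anti-PD-L1 and 0.86 within IgG libraries. Tssk2 and Tssk3 had an r of 0.87 (exact permutation p = 0.00330, adjusted 0.0228) and a rho of 0.90 (exact permutation p = 0.00456, adjusted 0.0577), with an r of 0.78 without the 2 farthest libraries, 0.77 within anti-PD-L1 and 0.96 within IgG libraries. Tssk1 and Tssk3 had an r of 0.70 (exact permutation p = 0.0533, adjusted 0.16). Reads lying wholly within the stretch printed above match both Tssk1 and Tssk2, and their part in the correlation of these genes was not tested.

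Tssk5 ran the other way. Its r with Tssk2 was -0.84 (exact permutation p = 0.00456, adjusted 0.0228) and its rho -0.83 (exact permutation p = 0.0154, adjusted 0.0577), with an r of -0.74 without the 2 libraries farthest from the median of Tssk2, -0.79 within anti-PD-L1 and -0.95 within IgG libraries. Over all 8 libraries Tssk6 had an r of 0.06 with Tssk2, 0.28 with Tssk3 and 0.59 with Tssk4, with exact permutation p of 0.870, 0.518 and 0.121. Within groups its r with Tssk3 was 0.93 in anti-PD-L1 and 0.72 in IgG libraries, and its r with Tssk2 was 0.57 in anti-PD-L1 and 0.49 in IgG libraries. With Tssk4 it was 0.70 in anti-PD-L1 and -0.31 in IgG libraries. These within-group values rest on 4 libraries each. All values share the library total of the TPM scale. Tests were two-sided over all orders of 8 libraries.

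**Figure D4:**
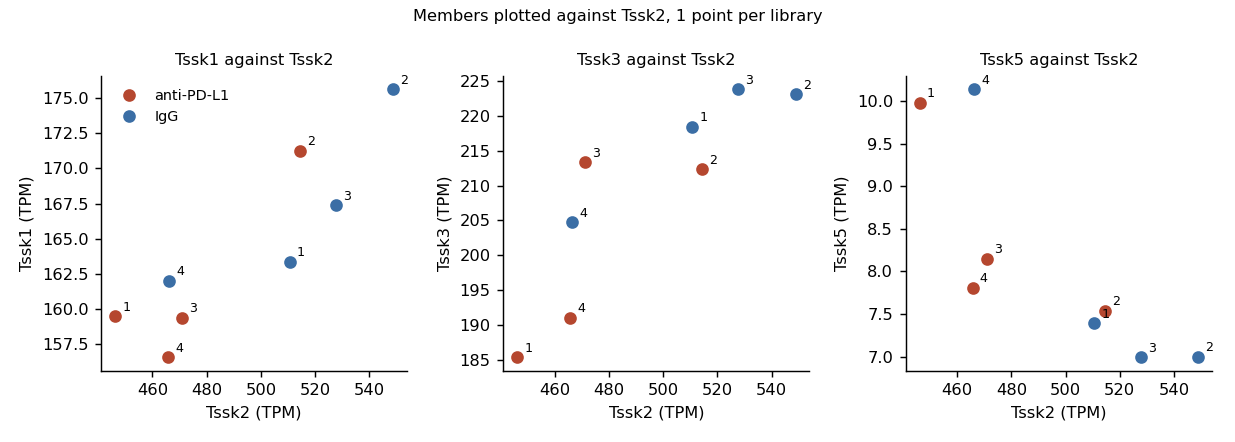
Levels of Tssk1, Tssk3 and Tssk5 in TPM against Tssk2, 1 point per library, numbered by replicate (axes do not start at 0). Tssk1 and Tssk3 are higher where Tssk2 is higher, and Tssk5 is highest in anti-PD-L1 replicate 1 and IgG replicate 4, where Tssk2 is at 446 and 466 TPM.

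The genes most like each member in Pearson r over the 8 libraries, among 7833 others (7834 for Tssk5) with a mean of at least 10 TPM, are given as a description. The highest r among so many genes over 8 libraries can be high by chance, and how high was not tested. Dnajb8, a testis-rich DNAJ co-chaperone, followed Tssk3 most closely (r = 0.99), with 408, 463, 471 and 419 TPM in anti-PD-L1 and 494, 487, 500 and 458 TPM in IgG libraries, and Ubl3 came next (0.98). For Tssk1 these were Ropn1, which encodes a fibrous sheath protein of the sperm tail (0.96), and the deubiquitinase gene Usp20 (0.95). For Tssk2 they were Adrm1, a ubiquitin receptor of the proteasome (0.96), and Sar1a (0.95), and for Tssk4 Adam39 (0.96). Tssk5 was closest to Tagap1 (0.99) and Sec61a2 (0.99). Both of these were also highest in anti-PD-L1 replicate 1 and IgG replicate 4, Tagap1 at 40.1 and 40.1 TPM in these 2 libraries and from 24.8 to 30.4 TPM in the other 6. Tssk6 was closest to Bcl7c, a subunit of the SWI/SNF chromatin remodeller (0.96), and Tbc1d20 (0.94). With 1 library left out these fell as low as 0.91 for Bcl7c and 0.87 for Tbc1d20. Bcl7c was at 51.1, 75.7, 87.3 and 50.6 TPM in anti-PD-L1 libraries and from 48.6 to 55.6 TPM in IgG libraries.

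Partners and substrates of the kinases formed a list of 13 genes found in the table. By limma with Benjamini-Hochberg adjustment 0 of 13 passed, and 2 had an unadjusted p under 0.05, H2afx on the higher and Tsacc on the lower side, where 5.23% of all tested genes had one. Of the 13, 5 were higher and 8 lower, with a median difference of -0.02, beside 0.03 over all tested genes, 58.3% of which were on the higher side. Tsacc, the TSSK6 co-chaperone gene, was at 428, 452, 460 and 435 TPM in anti-PD-L1 libraries, against 538, 500, 495 and 446 TPM in IgG libraries, and only IgG replicate 4 lay among the anti-PD-L1 libraries. Its difference was -0.15 (SE 0.06, adjusted p = 0.885 by limma). Tsacc over Tssk6, a ratio chosen after both had been seen, was 1.10, 0.947, 0.90 and 1.18 in anti-PD-L1 libraries, against 1.35, 1.35, 1.20 and 1.26 in IgG libraries, without overlap. Of all tested genes, 2.65% had a ratio to Tssk6 whose groups did not overlap.

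H2afx is the gene of the histone H2AX, whose phosphorylation during chromatin condensation needs TSSK6 in mice. H2afx was at 63.6, 76.1, 74.7 and 78.6 TPM in anti-PD-L1 libraries, against 54.3, 35.7, 50.9 and 68.0 TPM in IgG libraries. Anti-PD-L1 replicate 1 lay below the highest IgG library. The difference was 0.51 (SE 0.17, adjusted p = 0.778 by limma). It was 0.34 without IgG replicate 2, 0.65 without IgG replicate 4 and 0.71 with anti-PD-L1 replicate 1 left out as well. The lowest adjusted p of H2afx under any alternative was 0.201 by limma. Tsks, the substrate of TSSK1 and TSSK2, was at 477 ± 25.2 TPM in anti-PD-L1 and 505 ± 41.1 TPM in IgG libraries. Tssk2 stood near parity with it, at a ratio of 0.995 ± 0.0483 in anti-PD-L1 and 1.02 ± 0.0454 in IgG libraries (SD, n = 4 each).

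The most abundant of the list, Odf2, the tail protein on which TSSK4 acts, was at 3485 ± 181 TPM in anti-PD-L1 and 3604 ± 184 TPM in IgG libraries, a difference of -0.05 (SE 0.05). Hsp90aa1, a chaperone of kinases, differed by 0.08 (SE 0.06), and Ppp1cc, the phosphatase subunit needed for spermatid maturation, by 0.04 (SE 0.05). With 1 library left out the ranges were -0.08 to -0.022 for Odf2, 0.039 to 0.12 for Hsp90aa1, 0.012 to 0.069 for Ppp1cc and -0.12 to -0.042 for Tsks. Tcp11, a testis gene linked to sperm protein kinase A signalling, differed by -0.03 (SE 0.06), with its sign turned after quantile normalization and without anti-PD-L1 replicate 1.

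Other protein kinases of spermatids formed a list of 25. The median difference was 0.06, with 16 (64.0%) on the higher and 9 on the lower side, near the 0.03 and 58.3% of all tested genes, and 0 passed in limma and 0 had an unadjusted p under 0.05. Tesk1, the testis kinase of cofilin and actin dynamics, was at 504 ± 30.9 TPM in anti-PD-L1 and 550 ± 61.5 TPM in IgG libraries, close to the level of Tssk2, and differed by -0.12 (SE 0.08). Gsk3a, a kinase of sperm motility, differed by 0.14 (SE 0.08), and Cdkl2 by 0.09 (SE 0.05). Cdkl3 differed by -0.03 (SE 0.05), Csnk2a2, a casein kinase subunit needed for spermatid head shape in mice, by 0.06 (SE 0.08) and Mak by 0.06 (SE 0.06). With 1 library left out these ranged from -0.055 to -0.0008 for Cdkl3, from 0.0094 to 0.12 for Csnk2a2 and from 0.017 to 0.084 for Mak, and that of Tesk1 from -0.19 to -0.07. Stk33 differed by 0.004 (SE 0.05) and Ulk4 by -0.03 (SE 0.08), and both turned sign under some alternatives.

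Spermatid markers were abundant in all 8 libraries. Elongating spermatid markers summed to between 72031 and 80613 TPM in anti-PD-L1 libraries and between 74582 and 91705 TPM in IgG libraries, lowest of the IgG group in replicate 4. The median difference of these 24 markers was -0.10, and 22 of them were on the lower side, where 58.3% of all tested genes were on the higher side. Of the 24, 5 had an unadjusted p under 0.05 in limma, beside 5.23% of tested genes. The 22 round spermatid markers had a median difference of 0.06, with 17 (77.3%) on the higher side, and 3 had an unadjusted p under 0.05. The 10 adipocyte markers, of which 6 passed the filter and all 6 were on the lower side, summed to between 9.67 and 14.6 TPM in anti-PD-L1 libraries and reached 101 TPM in IgG replicate 1 and 35.2 TPM in IgG replicate 3, against 13.3 and 15.9 TPM in the other IgG libraries. The 8 T cell markers, of which 1 passed the filter, summed to between 3.77 and 5.46 TPM in anti-PD-L1 libraries and between 4.25 and 5.36 TPM in IgG libraries. The 10 Leydig cell markers, 6 on the higher and 4 on the lower side, summed to between 2831 and 3900 TPM in anti-PD-L1 and between 1603 and 2106 TPM in IgG libraries. Insl3, named after its values had been seen, was the most abundant of them, with 1610 to 3028 TPM in anti-PD-L1 and 751 to 998 TPM in IgG libraries, and the other 9 markers summed to between 872 and 1221 TPM in anti-PD-L1 and between 808 and 1108 TPM in IgG libraries, which overlap. No limma call was made in these lists and no marker of them was at 0 in all libraries, and the part of these marker levels in the values of the TSSK genes was not tested.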

How the data were processed

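The deposited table gives TPM per gene for 8 libraries, with columns of group means and gene length, per the file headers. The length column was deposited in bases with its origin not given. Per the submitters' processing notes the tools were RSEM, StringTie, HISAT2 and CASAVA 1.8, on mm10. What each tool did, and the strand setting, is not given in the sources used here. Since the authors' TPM values hold no read totals, depth is unknown and counting error cannot be stated. Groups and replicate numbers came from sample titles. At most 0.371% of the tested genes above 0 TPM in either of 2 libraries had the same TPM in both.

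The scale was log2(TPM + 1), the pseudocount being 1. A mean of 1 TPM or more was required, which 20343 genes met, and they were fitted in R 4.3.3 with limma 3.58.1, with an intensity trend and a group term, adjusted by Benjamini-Hochberg at 0.05. GENCODE M21 gave coordinates, exons and transcripts, and RefSeq gave promoters. Named genes were all 6 members and, from each related list, the 6 with the highest mean and the 2 with the smallest p, and for each member the 2 genes with the highest r over the libraries. One gene that this choice gives for likeness to a member is not reported here. Ndufa13 and Dgcr2 were named for their overlap with members. The members and lists were chosen with earlier results of these data known. H2afx stood in its list under 2 symbols, of which 1 is in the table.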

Additional observations from a re-analysis of the deposited data

Results flagged for a closer look

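In groups of 4, a library was singled out where its gap to the nearest library was a very large part of the group's range (Dixon's 95% critical value), which chance gives in about 1 of 20 groups. Of 48 groups of values, 6 met this, where chance gives about 2.4, and all 6 were in IgG libraries. Tssk4 was at 93.9 TPM in IgG replicate 1, against 104 to 105 TPM in the other 3 IgG libraries. Tssk5 was at 10.1 TPM in IgG replicate 4, against 6.99 to 7.39 TPM in the others. IgG replicate 1 was also low for the kinases Cdkl3, at 293.7 TPM, and Mak, at 83.9 TPM, and for Dgcr2, at 65.4 TPM. Ndufa13, opposite Tssk6, was at 103 TPM in IgG replicate 4, lower than the other 3 IgG libraries.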

How the results depend on the processing

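The log2 differences of the 6 members kept their sign and stayed short of the threshold in all 102 combinations of member and alternative, with the lowest adjusted p at 0.457 (limma, Benjamini-Hochberg). The number of members called was 0 under each of 17 alternatives, and 0 to 2 had an unadjusted p under 0.05. The count over all tested genes was 0, but 1 with a pseudocount of 0.1, 5 with array quality weights and 8 without both libraries that stand apart, an alternative chosen after seeing the data. It was 0 to 15 with 1 library left out: 15 without IgG replicate 4, 3 when anti-PD-L1 replicate 4 was left out, and 1 when either anti-PD-L1 replicate 1 or IgG replicate 2 was. The cause was not tested. With the replicate number as a block it was 0, with 0 members called. Deviations of same-numbered libraries correlated at -0.11, 0.10, 0.09 and -0.20, so the numbers are not taken as pairs. TMM scaling (30% of M and 5% of A values trimmed), quantile normalization, no trend, no filter and a filter of 5 TPM called 0 genes. Genes named for likeness, and Insl3, were not followed under the alternatives. Among named genes of both related lists, with Ndufa13 and Dgcr2, 273 of 289 combinations kept their sign and call and 16 turned sign. These were Tcp11 after quantile normalization (0.0028), Stk33 after quantile normalization (-0.0021), with TMM scaling (-0.026) and with weights (-0.0013), and Dgcr2 with TMM scaling (-0.016) and with weights (-0.018). With 1 library left out, Tcp11 ranged from -0.061 to 0.018, Stk33 from -0.022 to 0.036, Ulk4 from -0.092 to 0.033 and Dgcr2 from -0.092 to 0.051. The difference in the share of Tssk3 ranged from -1.30 to -1.11 percentage points with 1 library left out. Precision is limited by 4 libraries per group.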
